A study of Mus musculus with 11 samples.

Results

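The extracellular matrix proteases and their inhibitors were followed in ventricular myocardium of mice after sham surgery or transverse aortic constriction (TAC), in which a suture tied around the aortic arch narrows it and loads the left ventricle with pressure. Every gene in the deposited table whose mouse symbol is Mmp, Adamts, Adamtsl or Timp followed by its number was taken. This gave 51 genes of the 46517 identifiers: 23 matrix metalloproteinases (MMP), 19 ADAMTS proteases, 5 ADAMTS-like proteins (ADAMTSL) and 4 tissue inhibitors of metalloproteinases (TIMP). The annotation has 50 of them as protein coding and Mmp1a as a polymorphic pseudogene.

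Matrix metalloproteinases are zinc proteases that cleave collagens, gelatin, elastin and cell surface proteins, and most are secreted or displayed as inactive precursors that another protease must open. ADAMTS proteases are secreted relatives that trim procollagens, cleave large proteoglycans such as versican, or process microfibril proteins, and the ADAMTSL proteins share their ancillary domains without a catalytic domain. The TIMP proteins bind and block these enzymes, and in the loaded heart the balance between the enzymes and TIMPs is studied because it bears on how collagen is laid down and removed.

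The study used 11 mice operated at 10 to 12 weeks of age, in 4 groups: Lmnb2 WT with sham surgery (2 libraries), Lmnb2 KO with sham surgery (3), Lmnb2 WT with TAC (3) and Lmnb2 KO with TAC (3). All carry the Tnnt2-Cre transgene per the labels' protocols, and only the KO animals also carry floxed Lmnb2 alleles. The Tnnt2 promoter limits Cre largely to cardiomyocytes, while the RNA came from whole ventricular tissue, so that other cells keep their Lmnb2. One WT sham sample has the genotype label WT without the gene name and was placed with the Lmnb2 WT samples. The sample titles end in the letter F for 3 libraries (KO sham 2, WT TAC 1 and KO TAC 3) and in M for the other 8. Both WT sham libraries have the letter M, so the letters are not balanced over the groups. The interval between surgery and tissue collection is not given in the sources used here.

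Lmnb2, the targeted gene, stood at 4.44 and 3.86 CPM in the WT sham libraries and 0.649, 1.81 and 2.43 CPM in the KO-labelled sham libraries. After TAC its values were 2.86, 2.16 and 6.70 CPM in WT and 9.72, 3.24 and 4.46 CPM in the KO-labelled libraries. The KO label therefore matched lower Lmnb2 after sham and did not match it after TAC, and the genotype is written below as labelled. CPM (counts scaled to a common library size, with TMM factors) compare libraries, and RPKM are those values per kilobase of exon, which compare genes. Library totals were 1.48e+07 to 1.73e+07 counts. Mitochondrial genes held 32.8 to 49.4% of counts in sham and 13.2 to 35.9% in TAC libraries, ribosomal protein genes 0.637 to 1.69% and 0.849 to 6.62%, and the TMM factors were 0.724 to 0.957 and 1.03 to 1.24. These measures moved with the surgery, and the part of the mitochondrial share in the changes after TAC was not tested. Cardiomyocyte markers were high in every library, with a sum over 10 genes of 43830 to 84629 CPM. WT TAC 3 and KO TAC 1 stood apart from the other TAC libraries, with the lowest ribosomal protein shares after TAC (1.29 and 0.849%) and the lowest sums of 10 macrophage markers (445 and 515 CPM, against 1175 to 2476 CPM in the other TAC libraries). Both are included in the results below, and the counts of changed genes without them are given beside.

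RefSeq promoter windows (GRCm38.p6, the 250 bases before the annotated start) were found for 36 of the 51 genes. The following 4 are printed as examples: Timp1 and Adamts2, whose transcripts rose after TAC, and Mmp3 and Mmp13, members of a gene cluster in which no transcript passed the test. They were chosen after the values were seen. Capitals mark matches, on either strand, to an AP-1 motif (TGANTCA), a GC box (GGGCGG), a TEAD motif (GGAATG) or a TATA box (TATAAA). The windows lie at chrX:20869916-20870165 (Timp1), chr11:50601835-50602084 (Adamts2), chr9:7445572-7445821 (Mmp3) and chr9:7272264-7272513 (Mmp13), all on the + strand.
Timp1: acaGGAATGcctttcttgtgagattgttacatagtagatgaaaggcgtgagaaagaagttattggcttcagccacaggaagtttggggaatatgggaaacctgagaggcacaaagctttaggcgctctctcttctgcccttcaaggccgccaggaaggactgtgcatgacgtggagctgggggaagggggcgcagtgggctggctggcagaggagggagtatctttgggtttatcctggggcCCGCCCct
Adamts2: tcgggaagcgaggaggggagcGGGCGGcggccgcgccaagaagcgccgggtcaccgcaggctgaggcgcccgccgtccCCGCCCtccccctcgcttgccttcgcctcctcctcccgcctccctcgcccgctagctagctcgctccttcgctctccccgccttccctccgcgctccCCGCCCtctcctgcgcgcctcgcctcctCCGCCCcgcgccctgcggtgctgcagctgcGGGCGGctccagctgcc
Mmp3: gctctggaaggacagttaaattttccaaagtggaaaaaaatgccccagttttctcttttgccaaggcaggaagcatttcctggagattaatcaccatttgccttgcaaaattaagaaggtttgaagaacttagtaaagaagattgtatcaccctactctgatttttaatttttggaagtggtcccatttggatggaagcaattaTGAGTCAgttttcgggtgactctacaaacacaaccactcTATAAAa
Mmp13: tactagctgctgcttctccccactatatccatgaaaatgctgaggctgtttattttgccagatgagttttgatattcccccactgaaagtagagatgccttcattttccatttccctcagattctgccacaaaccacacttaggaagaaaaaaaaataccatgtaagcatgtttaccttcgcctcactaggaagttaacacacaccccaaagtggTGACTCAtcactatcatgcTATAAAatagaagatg

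Mmp3 and Mmp13 each hold 1 AP-1 match and 1 TATA box, and neither holds a GC box. Adamts2 holds 5 GC boxes and none of the other motifs, while Timp1 holds 1 GC box and 1 TEAD match. The cluster to which Mmp3 and Mmp13 belong contains 10 MMP genes between positions 7272514 and 7699585 of chromosome 9 (GRCm38), a span of 427 kb. AP-1 matches were present in the windows of 8 of its 10 genes, TATA boxes in those of 7 and GC boxes in those of 0. Of the 26 genes outside the cluster with a window, 0 held an AP-1 match, 3 a TATA box and 20 a GC box. A gene with more than 1 window was counted once, by a match in any of them. The shares over all promoters, given next, are instead per window. Over all 32536 promoter windows of the same length, 6.73% held the AP-1 motif, 12.3% the TATA box, 33.0% the GC box and 12.6% the TEAD motif, and no matches of different motifs overlapped in the members' windows. A match describes these letters only, and no binding was measured.

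After TAC the transcripts of several proteases and of Timp1 rose strongly, in both genotypes. In WT, 7 of the 40 genes with enough counts to test were higher after TAC and 0 were lower (edgeR quasi-likelihood test, Benjamini-Hochberg adjusted p under 0.05), namely Mmp2, Mmp14, Mmp23, Adamts2, Adamtsl2, Timp1 and Timp2. Over all 14619 genes tested in that comparison, 3.88% were higher and 3.04% lower. In the KO-labelled mice, 5 of 40 were higher and 0 lower (Mmp14, Mmp19, Mmp23, Adamts2 and Timp1), beside 3.32% higher and 1.37% lower among all genes. With both genotypes in 1 fit, 11 of 40 rose and 2 fell (Mmp15 and Adamts7), where 10.6% of all genes rose and 8.96% fell. Scaling by library totals turned that split into 15 higher and 0 lower among the 40, and 3577 higher and 385 lower among all genes. The median log2 fold change over the 40 genes was 0.80 in WT, 0.54 in the KO-labelled mice and 0.61 over both, against 0.05, 0.03 and 0.05 over all genes tested. These comparisons share libraries, so the fit over both genotypes is not a separate observation. In bulk tissue, more or fewer cells of a type and more or less RNA per cell cannot be told apart.

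Without WT TAC 3 and KO TAC 1, the counts were 12 higher and 2 lower in WT, and 8 higher and 4 lower in the KO-labelled mice, of 38 genes tested. Of all 14363 genes then tested, 2297 were higher and 2077 lower in WT, and 1081 higher and 1036 lower in the KO-labelled mice. The WT calls rested on the 2 WT sham libraries: 0 genes were called without WT sham 1, and 2 (Mmp14 and Adamts2) without WT sham 2. In those fits 1 WT sham library remains and is assumed to vary like the other groups, and 30 and 88 genes of all those tested were called. Without WT sham 1 the log2 fold changes in WT were 2.65 for Mmp14, 3.34 for Mmp23 and 4.63 for Timp1. In the KO-labelled mice, 3 genes were called without KO sham 1, KO TAC 2 or KO TAC 3. Nothing in the labels says how the mice were assigned to surgery or processing days, and the p-values measure the spread between these 11 samples.

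**Figure D1:**
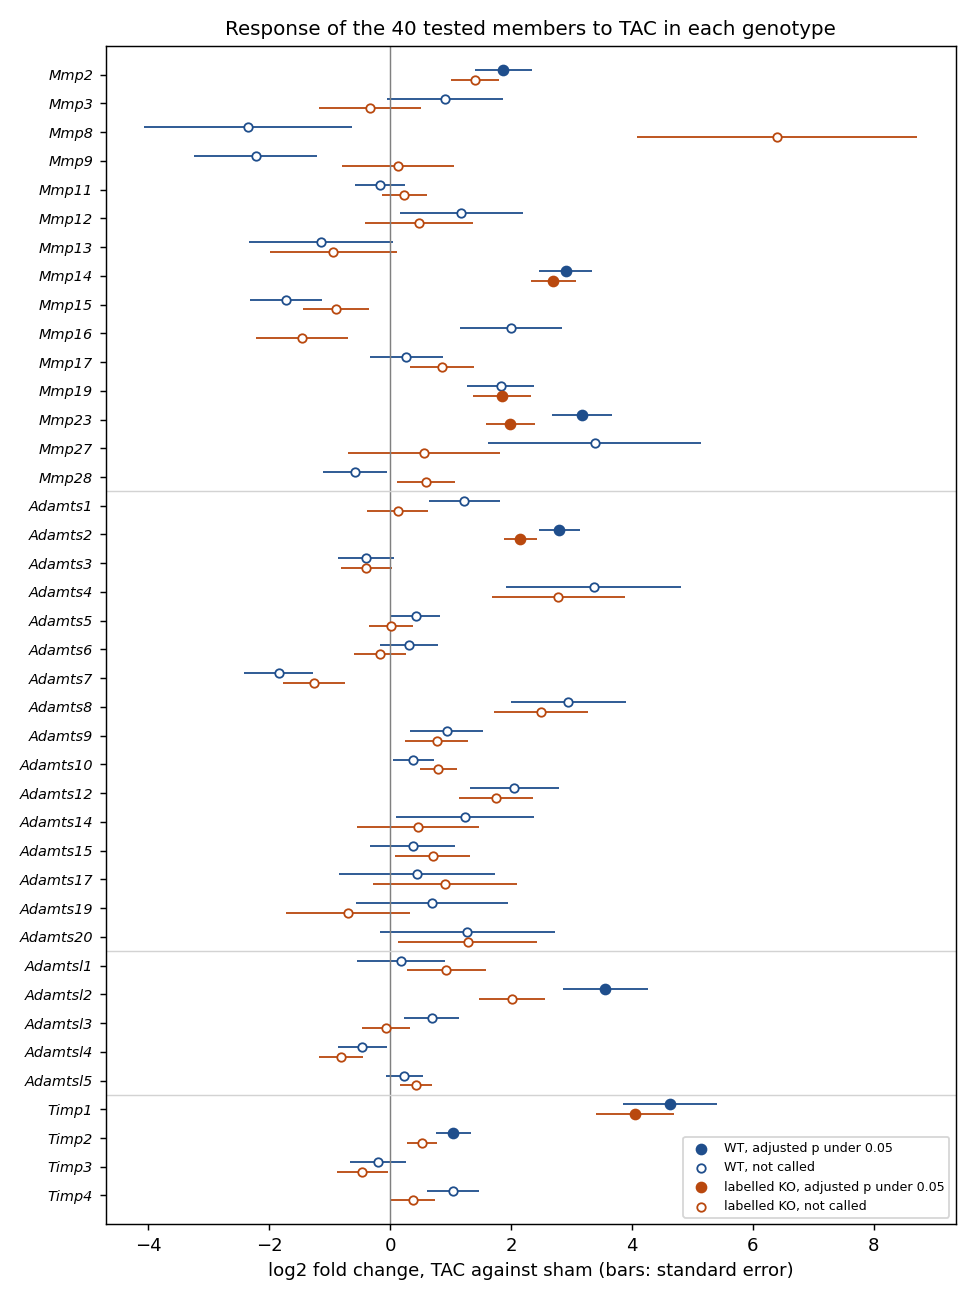
log2 fold change of TAC against sham (x axis) for the 40 tested genes (rows), in WT (blue) and in KO-labelled mice (orange), with standard errors as bars and filled points for an adjusted p under 0.05. Mmp14, Mmp23, Adamts2 and Timp1 are filled in both genotypes, and no filled point lies below 0.

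The tested genes outside those calls lay on both sides of 0, with medians above those of all genes. In WT the 33 tested genes that did not pass ranged from -2.34 to 3.38 with a median of 0.42, and in the KO-labelled mice the 35 that did not pass ranged from -1.45 to 6.40 with a median of 0.46. The extreme value in the KO-labelled mice is that of Mmp8, whose counts were 0 in all 3 sham libraries.

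Among the gelatinases, Mmp2 and Mmp9, only Mmp2 passed the test. Mmp2, which degrades denatured collagen and basement membrane collagen, measured 15.2 and 27.8 CPM in WT sham, 17.5, 34.4 and 26.7 CPM in KO-labelled sham, 51.1, 55.8 and 129 CPM in WT TAC, and 65.4, 57.8 and 84.6 CPM in KO-labelled TAC libraries. All 6 TAC libraries lay above all 5 sham libraries. The log2 fold change was 1.87 ± 0.47 (standard error, edgeR adjusted p = 0.035) in WT and 1.40 ± 0.40 (adjusted p = 0.066) in the KO-labelled mice, and 1.61 ± 0.30 (adjusted p = 0.0028) over both. The call in WT was lost without WT sham 1, WT sham 2, KO sham 3, WT TAC 2 or KO TAC 2 (adjusted p from 0.0503 to 0.26).

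Mmp9, a gelatinase stored in neutrophil granules and also made by macrophages, was near the limit of measurement. Its levels were 1.31 and 1.26 CPM in WT sham, 0.463, 0.724 and 0.417 CPM in KO-labelled sham, 0.179, 0.584 and 0.0519 CPM in WT TAC, and 0.238, 0.173 and 1.37 CPM in KO-labelled TAC. The 3 highest libraries were thus both WT sham libraries and KO TAC 3, and sham and TAC overlapped in the KO-labelled mice. Neither comparison of surgery passed the test (edgeR adjusted p = 0.19 in WT and 0.96 in KO-labelled mice). At this depth 3 counts correspond to 0.143 to 0.278 CPM, depending on the library.

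The secreted collagenases Mmp8 and Mmp13, which open fibrillar collagen, were low. Mmp13 (collagenase 3, described after its values were seen) measured 0.813 and 1.10 CPM in WT sham, 2.22, 0.422 and 1.39 CPM in KO-labelled sham, 0.119, 0.643 and 0.519 CPM in WT TAC, and 1.86, 0.0578 and 0.114 CPM in KO-labelled TAC. The WT TAC libraries lay below WT sham, the KO-labelled groups overlapped, and Mmp13 did not pass the test in either genotype (edgeR adjusted p = 0.58 and 0.71). Mmp8, the neutrophil collagenase, was at 0 counts in WT sham 1, in WT TAC 3 and in all 3 KO-labelled sham libraries, and measured 0.866 CPM in WT sham 2, 0.0596 and 0.175 CPM in WT TAC 1 and 2, and 0.0953, 0.289 and 1.54 CPM in the KO-labelled TAC libraries. Against a floor of 3 counts over the KO-labelled sham group, Mmp8 was at least 8.49-fold higher after TAC in the KO-labelled mice, from 34 counts, and it did not pass the test (edgeR adjusted p = 0.16). Of these counts 27 were in KO TAC 3, and without that library the bound was at least 2.54-fold higher, from 7 counts. The libraries with the highest Mmp8, KO TAC 3 and WT sham 2, also had the highest sums of 10 neutrophil markers, 46.5 and 35.0 CPM, where the other 9 libraries had at most 15.4 CPM. In these 2 libraries the granule genes Ngp, Camp and Ltf had 16 to 119 counts, against 0 to 9 counts in the others, while the lineage marker Ly6g was at 0 to 1 count in every library. The part of neutrophil RNA in the Mmp8 and Mmp9 values was not tested.

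Mmp3 (stromelysin-1, which cleaves proteoglycans and activates other MMP precursors) measured 2.25 and 4.96 CPM in WT sham, 2.69, 2.96 and 7.02 CPM in KO-labelled sham, 9.0, 10.8 and 0.467 CPM in WT TAC, and 6.29, 1.85 and 1.89 CPM in KO-labelled TAC. TAC and sham libraries overlapped in both genotypes, and WT TAC libraries held both the highest and the lowest value. Mmp12, the macrophage elastase, measured 0.375 and 1.65 CPM in the WT sham libraries and 0.463, 0.422 and 1.95 CPM in KO-labelled sham, against 2.38, 4.15 and 0.312 CPM in WT TAC and 1.43, 1.79 and 0.744 CPM in KO-labelled TAC. It also overlapped between sham and TAC. Neither gene passed the test in any comparison.

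Of the membrane-anchored MMPs, Mmp14 rose and Mmp15 fell. Mmp14 (MT1-MMP, the collagenase at the cell surface that also activates the Mmp2 precursor together with Timp2) measured 3.44 and 5.04 CPM in the WT sham libraries and 2.5, 3.86 and 6.11 CPM in KO-labelled sham. After TAC its values were 23.5, 40.7 and 30.7 CPM in WT and 35.5, 24.4 and 21.7 CPM in KO-labelled libraries. The lowest TAC library was above the highest sham library, and the log2 fold change was 2.90 ± 0.44 (edgeR adjusted p = 0.0044) in WT and 2.70 ± 0.37 (adjusted p = 0.0026) in the KO-labelled mice. Without WT sham 1 the adjusted p in WT was 0.090.

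Mmp15 (MT2-MMP) measured 62.3 and 66.3 CPM in WT sham, 68.1, 79.5 and 57.9 CPM in KO-labelled sham, 10.5, 9.64 and 38.2 CPM in WT TAC, and 67.0, 22.8 and 20.2 CPM in KO-labelled TAC. All 3 WT TAC libraries were below WT sham, while KO TAC 1 lay within the range of the KO-labelled sham libraries. Over both genotypes Mmp15 fell, with a log2 fold change of -1.27 ± 0.40 (edgeR adjusted p = 0.041), a call that was lost without any single library other than WT TAC 3 or KO TAC 1 (adjusted p from 0.053 to 0.11). The 2 TAC libraries with the highest Mmp15, KO TAC 1 and WT TAC 3, were those with the lowest ribosomal protein shares. Of the TAC libraries they also had the highest mitochondrial shares (35.9 and 30.5%) and sums of 10 endothelial markers (1156 and 772 CPM). Adding the ribosomal share to the fit gave a log2 fold change of -0.68 for Mmp15, and the call was lost (edgeR adjusted p = 0.068). That share itself moved with the surgery. The part of any of these measures in the Mmp15 values was not tested. Scaling by library totals moved the median log2 fold change of all genes over both genotypes to 0.45, and with it Mmp15 was no longer called (log2 fold change -0.83, edgeR adjusted p = 0.16).

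Mmp16 (MT3-MMP) was low. Its levels were 0.313 and 0.236 CPM in WT sham, 0.649, 0.543 and 0.208 CPM in KO-labelled sham, 1.13, 1.52 and 0.727 CPM in WT TAC, and 0.0953, 0.231 and 0.172 CPM in KO-labelled TAC. The WT TAC libraries were the 3 highest of all 11, and 2 of the 3 KO-labelled TAC libraries were the lowest. The genotypes did not overlap after TAC, but the difference of -2.72 ± 0.74 on the log2 scale did not pass over all genes (edgeR adjusted p = 0.75). Mmp16 passed the filter on low counts only through the WT TAC libraries (14 to 26 counts), the group where it was high. The separation is therefore no support for a difference.

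Of the remaining MMPs, Mmp19 and Mmp23 rose. Mmp23, a type II transmembrane protease that is released from the membrane by cleavage, measured 2.94 and 2.36 CPM in WT sham, 3.89, 3.32 and 2.64 CPM in KO-labelled sham, 23.2, 34.9 and 13.9 CPM in WT TAC, and 7.20, 14.9 and 17 CPM in KO-labelled TAC. All TAC libraries were above all sham libraries, with the largest values in WT TAC 1 and 2. Its log2 fold change was 3.17 ± 0.50 (edgeR adjusted p = 0.0055) in WT and 1.99 ± 0.40 (adjusted p = 0.017) in KO-labelled mice. The difference between these 2 responses was -1.18 ± 0.60 (adjusted p = 0.99), so a difference is not established. The call in WT was lost without WT sham 1 or 2, where the log2 fold changes were 3.34 and 3.02. That in KO-labelled mice was lost without any KO-labelled sham library, KO TAC 2 or KO TAC 3 (edgeR adjusted p from 0.0503 to 0.087). It was also lost with limma-voom (adjusted p = 0.059) and with only the titles ending in M (edgeR adjusted p = 0.17).

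Mmp19, a secreted protease of basement membrane substrates, measured 0.875 and 0.866 CPM in WT sham, 0.556, 1.03 and 1.11 CPM in KO-labelled sham, 2.86, 4.62 and 1.87 CPM in WT TAC, and 4.05, 2.77 and 3.03 CPM in KO-labelled TAC. No TAC library overlapped a sham library. Although it was called only in the KO-labelled mice (1.85 ± 0.48, edgeR adjusted p = 0.046), its log2 fold change in WT was 1.83 ± 0.55 (adjusted p = 0.065), and the difference between the genotypes' responses was 0.02 ± 0.73. The call was lost without any single library other than WT TAC 2 or WT TAC 3 (adjusted p from 0.058 to 0.17). The Mmp19 call was also lost with limma-voom (adjusted p = 0.085) and with only the titles ending in M (edgeR adjusted p = 0.20). Tmem198b, on the opposite strand, shares 22.3% of the exonic bases of Mmp19, and the strand setting of the counting is not given in the sources used here.

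**Figure D2:**
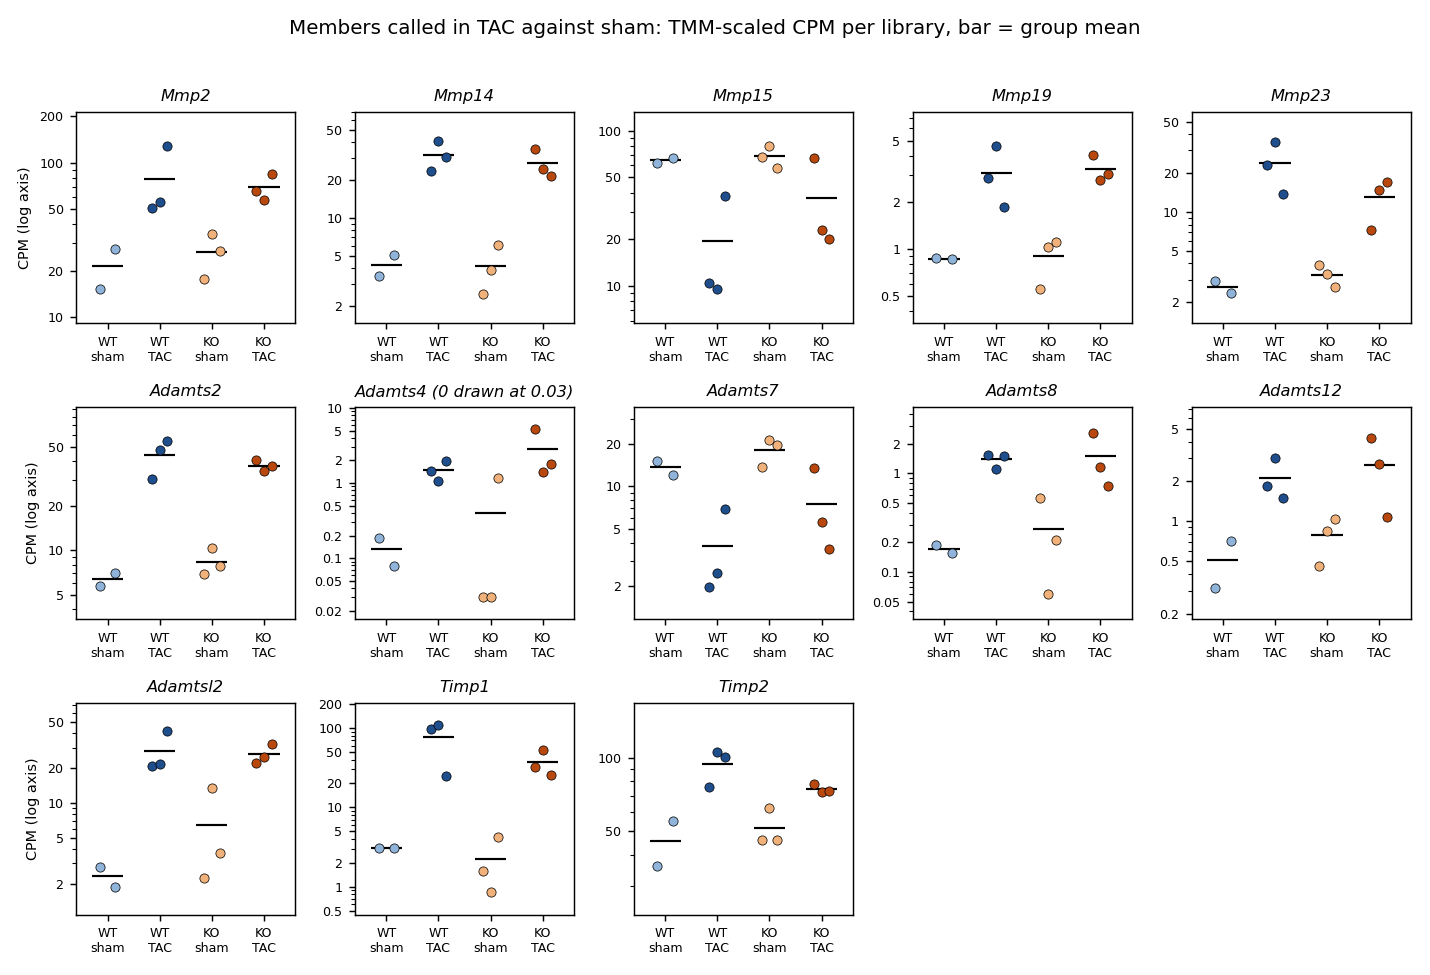
CPM (log axis, 1 point per library, bars at group means) for the 13 genes called in any comparison of TAC with sham, by genotype as labelled and surgery. The 6 TAC libraries lie above all 5 sham libraries for 10 of the 13, with overlap for Adamts4, Mmp15 and Adamts7. The 13 genes were chosen by the test on these same libraries, so this separation adds no further evidence. The share of all genes with such a separation was not computed.

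Among the ADAMTS proteases, the procollagen N-proteinase Adamts2 was the clearest change. Adamts2, which removes the amino-terminal propeptide of fibrillar procollagens, measured 5.75 and 7.01 CPM in the WT sham libraries and 6.95, 10.4 and 7.78 CPM in KO-labelled sham. After TAC its values were 30.1, 47.7 and 55.1 CPM in WT and 40.8, 34.4 and 37.0 CPM in KO-labelled libraries. The groups were far apart and narrow, and the log2 fold change was 2.80 ± 0.34 (edgeR adjusted p = 0.0021) in WT and 2.16 ± 0.28 (adjusted p = 0.0020) in KO-labelled mice. Without WT sham 1 the adjusted p in WT was 0.054. Adamts3 and Adamts14, which share its substrate class and are named here after their values were seen, did not pass: their log2 fold changes over both genotypes were -0.40 ± 0.30 and 0.81 ± 0.74.

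Of the proteases known to cleave versican or aggrecan, Adamts4 and Adamts8 rose over both genotypes. Adamts4 measured 0.188 and 0.0787 CPM in WT sham, 0, 0 and 1.18 CPM in KO-labelled sham, 1.43, 1.05 and 1.97 CPM in WT TAC, and 5.24, 1.39 and 1.77 CPM in KO-labelled TAC. Only KO sham 3 among the sham libraries reached the TAC range. Adamts8 measured 0.188 and 0.157 CPM in WT sham, 0.556, 0.0603 and 0.208 CPM in KO-labelled sham, 1.55, 1.11 and 1.51 CPM in WT TAC, and 2.57, 1.16 and 0.744 CPM in KO-labelled TAC. For Adamts8 no TAC library overlapped a sham library. Sham counts were 0 to 17 for Adamts4 and 1 to 6 for Adamts8, and both genes passed the filter on low counts only through TAC libraries. A fall of such genes could not have been called. Over both genotypes Adamts4 rose by 2.99 ± 0.84 and Adamts8 by 2.68 ± 0.58 on the log2 scale (edgeR adjusted p = 0.025 and 0.0065), and neither passed within a genotype. The Adamts4 call was lost without WT sham 1, WT sham 2 or KO TAC 1 (adjusted p = 0.067, 0.066 and 0.051). Exons of Adamts8 overlap an antisense gene, Gm29724, over 10.6% of their length.

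Adamts1, an abundant protease of this class that is also known as an inhibitor of vessel growth, measured 17.9 and 22.4 CPM in WT sham, 13.1, 41.3 and 13.9 CPM in KO-labelled sham, 34.1, 25.4 and 82.2 CPM in WT TAC, and 32.1, 16.5 and 26.1 CPM in KO-labelled TAC. Adamts5 measured 10.9 and 18.1 CPM in WT sham, 11.9, 17.8 and 18.4 CPM in KO-labelled sham, 29.3, 14.4 and 14.7 CPM in WT TAC, and 22.5, 12.0 and 14.1 CPM in KO-labelled TAC. WT sham and WT TAC did not overlap for Adamts1, while Adamts5 overlapped in both genotypes. Adamts9 ranged from 5.94 to 12.1 CPM in sham and from 6.35 to 32.4 CPM in TAC libraries, and Adamts15 from 1.67 to 5.85 CPM and from 1.72 to 12.4 CPM. None of the 4 passed the test in any comparison, and the highest value of Adamts9 and of Adamts15 was in KO TAC 1.

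Adamts7 and Adamts12, a pair that degrades cartilage oligomeric matrix protein, went opposite ways. Adamts7 measured 15.1 and 12.1 CPM in WT sham, 13.7, 21.4 and 19.5 CPM in KO-labelled sham, 1.97, 2.45 and 6.91 CPM in WT TAC, and 13.5, 5.61 and 3.60 CPM in KO-labelled TAC. Each genotype's TAC libraries lay below its sham libraries, narrowly so for KO TAC 1. As for Mmp15, the highest TAC values were in KO TAC 1 and WT TAC 3. Adamts7 fell over both genotypes, with a log2 fold change of -1.52 ± 0.38 (edgeR adjusted p = 0.014). It was not called with library totals (edgeR adjusted p = 0.059) or with only the titles ending in M (adjusted p = 0.105). Nor was it called without WT sham 1 (log2 fold change -1.40). Unlike that of Mmp15, the Adamts7 call was kept when the ribosomal share was added to the fit. The part of that share in the Adamts7 values was not tested.

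Adamts12 measured 0.313 and 0.709 CPM in WT sham, 0.463, 0.845 and 1.04 CPM in KO-labelled sham, 1.85, 2.98 and 1.51 CPM in WT TAC, and 4.24, 2.72 and 1.09 CPM in KO-labelled TAC. The lowest TAC library, KO TAC 3, was just above the highest sham library, KO sham 3. The log2 fold change over both genotypes was 1.88 ± 0.45 (edgeR adjusted p = 0.011).

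**Figure D3:**
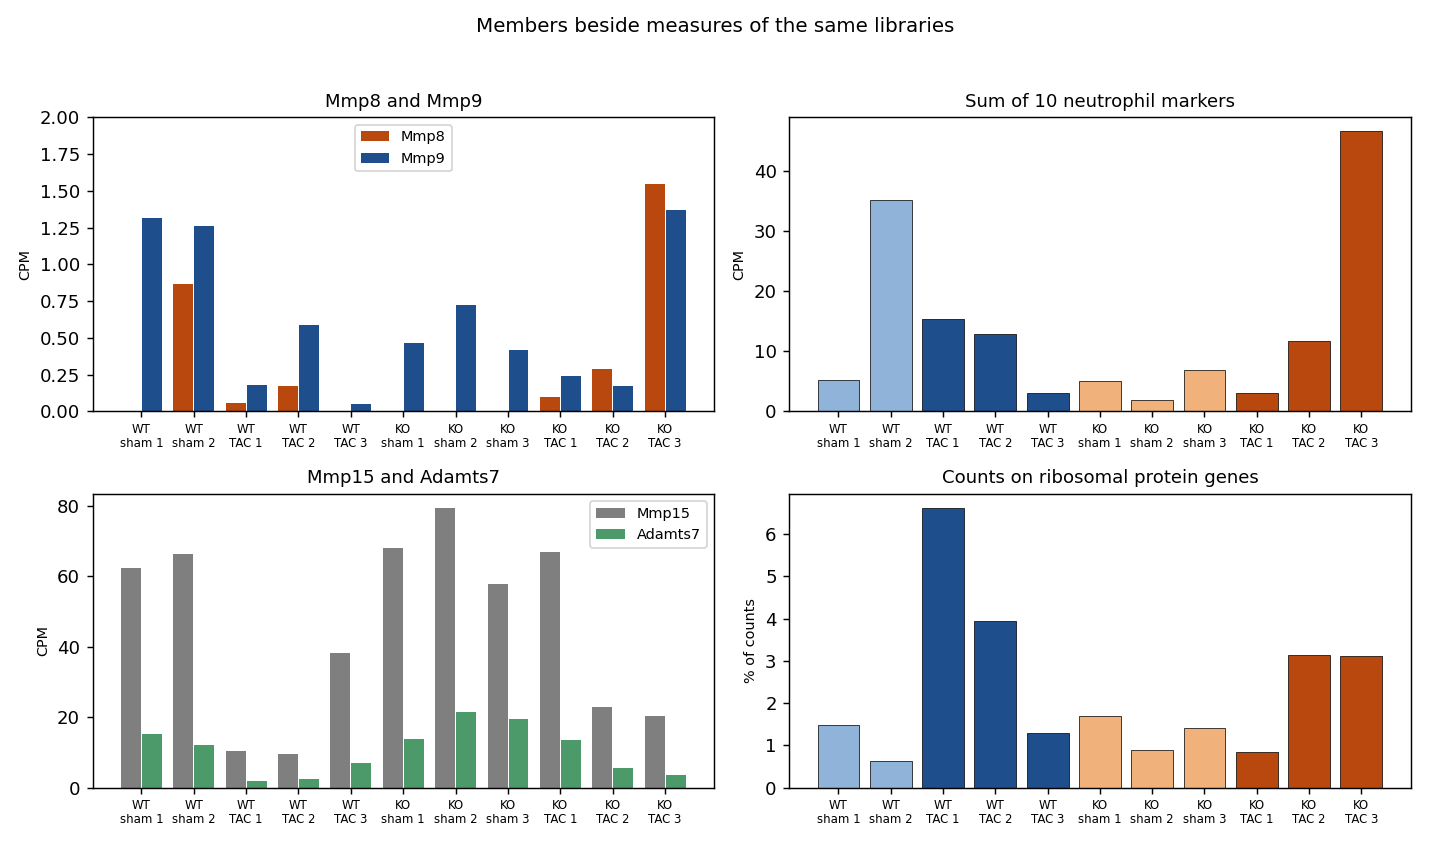
Bars give CPM of Mmp8 and Mmp9 (top left), the summed CPM of 10 neutrophil markers (top right), CPM of Mmp15 and Adamts7 (bottom left) and the percent of counts on ribosomal protein genes (bottom right) in each of the 11 libraries. The neutrophil sum is highest in KO TAC 3 and WT sham 2, where Mmp8 is highest, and Mmp15 and Adamts7 are highest among TAC libraries in KO TAC 1 and WT TAC 3, where the ribosomal share is lowest among them.

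Of the 5 ADAMTSL genes, Adamtsl2 rose. Adamtsl2, which binds fibrillin microfibrils and latent TGF-beta binding protein, measured 2.81 and 1.89 CPM in WT sham, 2.22, 13.5 and 3.68 CPM in KO-labelled sham, 20.9, 21.6 and 41.5 CPM in WT TAC, and 22.1, 25.0 and 32.1 CPM in KO-labelled TAC. KO sham 2 stood above the other sham libraries but below every TAC library. The log2 fold change was 3.56 ± 0.70 (edgeR adjusted p = 0.014) in WT and 2.01 ± 0.55 (adjusted p = 0.056) in KO-labelled mice, with a difference between the responses of -1.55 ± 0.83 (adjusted p = 0.99). Without WT sham 1 or 2 the adjusted p in WT was 0.12 or 0.15. Adamtsl5 and Adamtsl4, named for their level, made up most of the family's RPKM and did not pass the test. Adamtsl5 held 48.4 to 66.3% of it in sham and 54.1 to 74.3% in TAC libraries.

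Timp1 showed the largest rise among the 40 tested genes over both genotypes. Timp1 (chromosome X, 20870166 to 20874735, GRCm38), a secreted inhibitor of most MMPs, measured 3.06 and 3.07 CPM in the WT sham libraries and 1.58, 0.845 and 4.24 CPM in KO-labelled sham. After TAC its values were 95.9, 108 and 24.6 CPM in WT and 32.2, 53.1 and 25.3 CPM in KO-labelled libraries. The lowest TAC library was several times above the highest sham library, and WT TAC 3 was well below the other WT TAC libraries. The log2 fold change was 4.63 ± 0.78 (edgeR adjusted p = 0.0070) in WT and 4.05 ± 0.65 (adjusted p = 0.0051) in the KO-labelled mice. Without WT sham 1 or 2 the adjusted p in WT was 0.11 or 0.10, with log2 fold changes of 4.63 and 4.62.

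Timp2, which inhibits MMPs and takes part in the activation of Mmp2 at the cell surface, measured 36.1 and 55.1 CPM in WT sham, 46.0, 62.6 and 46.3 CPM in KO-labelled sham, 75.9, 106 and 101 CPM in WT TAC, and 77.9, 72.2 and 73.2 CPM in KO-labelled TAC. Its TAC and sham libraries did not overlap. The change was small beside that of Timp1 and was at the edge of the threshold in WT: 1.04 ± 0.29 (edgeR adjusted p = 0.0499) in WT, 0.53 ± 0.25 (adjusted p = 0.28) in KO-labelled mice and 0.75 ± 0.19 (adjusted p = 0.017) over both. The call in WT was lost without any single library other than WT TAC 3 or KO TAC 1 (adjusted p from 0.060 to 0.32), and that over both genotypes without WT sham 1 (adjusted p = 0.072).

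Timp3, the matrix-bound inhibitor that also blocks ADAM and ADAMTS proteases, measured 80.4 and 111 CPM in WT sham, 96.6, 197 and 53.8 CPM in KO-labelled sham, 67.4, 59.9 and 123 CPM in WT TAC, and 85.4, 76.3 and 91.2 CPM in KO-labelled TAC. The groups overlapped, and its log2 fold change over both genotypes was -0.34 ± 0.30 (edgeR adjusted p = 0.46). Exons of Syn3 on the opposite strand share 21.3% of its exonic bases, with 56 counts in all for Syn3. Timp4, a TIMP known for its expression in heart, measured 26.6 and 23.5 CPM in WT sham, 17.8, 23.8 and 18.2 CPM in KO-labelled sham, 63.3, 49.4 and 42.8 CPM in WT TAC, and 10.3, 33.9 and 33.2 CPM in KO-labelled TAC. WT TAC was above WT sham in every library, and KO TAC 1 was the lowest of all 11. Timp4 did not pass in any comparison (adjusted p = 0.15 in WT and 0.68 in KO-labelled mice for TAC against sham).

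The makeup of the TIMP transcripts thereby shifted. Per length, Timp1 held 2.10 to 18.1% of the family's RPKM in sham libraries and 36.5 to 73.9% in TAC libraries. Timp3 held 25.1 to 53.4% in sham and 4.48 to 19.9% in TAC libraries. The summed TIMP level was 26.3 to 45.2 RPKM in sham and 64.1 to 164 RPKM in TAC libraries. The summed MMP level was 22.7 to 31.5 RPKM in sham and 37.0 to 60.0 RPKM in TAC, while the ADAMTS sums (9.45 to 17.9 and 13.9 to 29.9 RPKM) and the ADAMTSL sums (14.7 to 21.5 and 14.9 to 27.1 RPKM) overlapped. Within the MMPs, Mmp15 held 37.6 to 51.3% of the family's RPKM in sham and 3.45 to 25.3% in TAC libraries.

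**Figure D4:**
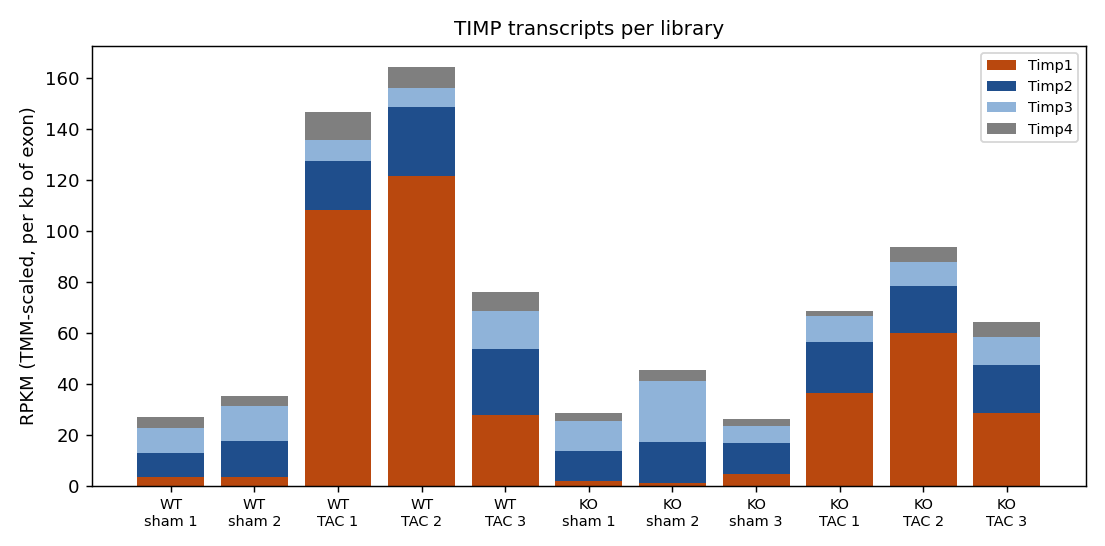
Stacked RPKM of Timp1 to Timp4 in each of the 11 libraries. Timp1 is a thin layer in the 5 sham libraries and the largest layer in every TAC library, and the summed height is 64.1 to 164 RPKM after TAC against 26.3 to 45.2 after sham.

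At rest the most abundant of the 51 transcripts per length were, by their median over the 5 sham libraries, Mmp15 (12.3 RPKM), Timp2 (11.9 RPKM), Timp3 (11.9 RPKM), Adamtsl5 (10.4 RPKM) and Mmp2 (7.91 RPKM). The ranges of the first 4 overlapped (10.7 to 14.7, 9.28 to 16.1, 6.61 to 24.1 and 9.75 to 10.9 RPKM), so their order is not resolved by these libraries. After TAC, Timp1 had the highest median of all 51, at 48.0 RPKM. Timp2 at 19.7 and Mmp2 at 18.3 RPKM followed, and their ranges overlapped (18.5 to 27.1 and 15.1 to 38.2 RPKM). The range of Mmp2 also overlapped that of Timp1, since Mmp2 was above Timp1 in WT TAC 3.

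The genotype comparisons gave no call. Between KO-labelled and WT mice, 0 of 40 genes passed after sham and 0 of 40 after TAC (edgeR, adjusted p under 0.05), and 0 of 40 differed in their response to TAC. Over all 14619 genes, 0% were called in each of the 3 comparisons. At an unadjusted p under 0.05 there were 2, 3 and 2 of the 40 genes, and 185, 930 and 434 of all genes, and DESeq2 and limma-voom also called 0 of the 40. Among all genes tested, 3, 6 and 2 were called by DESeq2, while limma-voom gave 0 in the same comparisons.

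After sham the smallest p-values among the genes were those of Mmp8, Adamtsl2 and Adamtsl3. Mmp8 passed the filter on low counts only through WT sham 2 and KO TAC 3 (11 and 27 counts), the libraries where it was high. Its small p is therefore no support for a difference. Adamtsl2 differed by 1.47 ± 0.65 on the log2 scale (KO-labelled against WT, edgeR adjusted p = 1) and by 0.33 without KO sham 2. Adamtsl3, an ADAMTS-like protein, measured 3.31 and 2.83 CPM in the WT sham libraries and 4.08, 7.0 and 3.06 CPM in KO-labelled sham, a difference of 0.62 ± 0.46. The WT values lay at the lower end, and the groups overlapped.

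After TAC the smallest were those of Mmp16, Timp4 and Mmp23, all lower in the KO-labelled libraries. Timp4 differed by -1.01 ± 0.38 and Mmp23 by -0.88 ± 0.38 on the log2 scale (edgeR adjusted p = 0.75 for each). For Timp4 the genotypes did not overlap, and for Mmp23 KO TAC 2 and 3 lay within the WT range. Mmp28 and Mmp25 did not overlap either, with the KO-labelled libraries above WT (Mmp28 by 0.78 ± 0.48, not called). Timp4 was picked by its p on these same libraries, so its separation adds no further evidence. The share of all genes with such a separation was not computed. For the difference in response the smallest p-values were those of Mmp16, Mmp8 and Mmp23. Mmp16 (-3.45 ± 1.13) was tested only through its WT TAC counts. Mmp8 (8.74 ± 2.93) came from groups at or near 0 and was tested only through WT sham 2 and KO TAC 3. For Mmp23 the difference was -1.18 ± 0.60. A missing call does not show that the genotypes are alike, since the standard errors of the 40 differences after TAC ran from 0.25 to 1.56 with a median of 0.52 on the log2 scale.

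Too low to measure were 11 of the 51 genes, which did not pass the filter on low counts. Mmp1a, Mmp1b, Mmp20 and Mmp21 had 0 counts in all 11 libraries. Mmp10 had 3 counts in all, Adamts13 2 and Adamts18 2. Mmp7 had 8 counts, all in KO TAC 3.

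The few counts of Adamts16, Mmp24 and Mmp25 lay mostly in TAC libraries. Adamts16 had 0 counts in all 5 sham libraries and 3, 23 and 9 counts in WT TAC and 1, 2 and 5 counts in KO-labelled TAC, which makes it at least 6.3-fold higher in WT and at least 2-fold higher in KO-labelled mice against a floor of 3 counts over the sham group. Mmp24 (MT5-MMP) had 1 count in the sham libraries together, and 3, 24 and 3 counts in WT TAC and 1, 8 and 8 counts in KO-labelled TAC. Its bound in WT was at least 5.4-fold higher. Most WT counts of both genes came from WT TAC 2, and without it the WT bounds were at least 3.18-fold higher for Adamts16 and at least 1.59-fold higher for Mmp24. The KO-labelled TAC libraries held 8 counts of Adamts16, and without KO TAC 3 only 3 remained, which give no bound. Mmp25 (MT6-MMP, a membrane-anchored protease known from leukocytes) had 1 count in WT sham 2 and 0 in the other sham libraries, 0, 0 and 3 counts in WT TAC, and 12, 3 and 5 counts in KO-labelled TAC. It was at least 4.99-fold higher after TAC in the KO-labelled mice, and at least 3.2-fold higher without KO TAC 1. The KO-labelled TAC libraries of Mmp25 lay above KO-labelled sham and, in CPM, above WT TAC. The bounds without a library were added after the values were seen. These bounds cover counting error only, and 13.6% of the exonic bases of Mmp24 overlap BC029722.

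The 10 clustered MMP genes on chromosome 9 (Mmp13, Mmp12, Mmp1b, Mmp3, Mmp1a, Mmp10, Mmp8, Mmp27, Mmp20 and Mmp7) gave 5 testable transcripts and 0 calls in any comparison. Of the 7 genes that rose over both genotypes and have a promoter window, 0 held the AP-1 motif, 5 the GC box, 1 the TEAD motif (Timp1, printed above) and 1 the TATA box.

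Some genes that act around these proteases also rose after TAC. Beside the counts in the lists below, 3.88% of all genes tested rose in WT, 3.32% in the KO-labelled mice and 10.6% over both genotypes. Of 18 tested genes that activate, bind or clear MMPs, 5 rose in WT and 4 in the KO-labelled mice, and 0 fell. Thbs1, a matrix protein that binds MMPs and their clearance receptor, rose by 3.73 ± 0.52 in WT and 2.49 ± 0.41 in KO-labelled mice on the log2 scale (edgeR adjusted p = 0.0033 and 0.0062). Of 5 tolloid and procollagen processing genes, 3 rose in WT and 2 in KO-labelled mice, led by Pcolce, the enhancer of the procollagen C-proteinase, at 1.83 ± 0.27 and 1.40 ± 0.23 (adjusted p = 0.0044 and 0.0062).

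Of 8 ADAM membrane proteases 1 rose in WT (Adam9, 1.28 ± 0.32, edgeR adjusted p = 0.036) and 0 in KO-labelled mice. Over both genotypes 3 of the 8 rose, Adam12 with the smallest p (2.34 ± 0.47). Of 3 tested hyalectan genes, Vcan, the substrate of several ADAMTS proteases, rose by 3.00 ± 0.49 in WT and by 2.11 ± 0.40 in KO-labelled mice (adjusted p = 0.0061 and 0.011). None of these lists had a member that fell.

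Fibroblast markers, summed over 10 genes, were also higher after TAC. The 10 include the collagen genes Col1a1, Col1a2 and Col3a1, and a sum weighs abundant genes most. The 1 library with the highest sum, WT TAC 1, had the lowest Mmp2, Adamts2 and Adamtsl2 of the TAC libraries. Its Timp1 and Mmp23 were below those of WT TAC 2 only. The summed level of 10 fibroblast markers was 814 to 1189 CPM in sham libraries, 4523 to 9272 CPM in WT TAC and 3135 to 4804 CPM in KO-labelled TAC libraries, and 6 of the 10 rose in WT and 5 in KO-labelled mice, with 0 lower. Of 10 macrophage markers 2 rose in each genotype, and all 10 over both genotypes. Among all genes tested, 3.88% rose in WT, 3.32% in KO-labelled mice and 10.6% over both genotypes, so the fits call at different rates. Of 10 cardiomyocyte markers 4 fell in WT and 2 in KO-labelled mice, beside 3.04% and 1.37% of all genes. The markers' part in the changes of Mmp2, Mmp14, Adamts2, Adamtsl2 and Timp1 was not tested.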

How the data were processed

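RNA from ventricular myocardium of 11 mice was sequenced. The values deposited by the authors are raw, whole-number counts, with 1 row per Ensembl identifier. Processing notes of the submitters list STAR 2.5.1, featureCounts, DESeq2 and the build GRCm38. Annotation version, strand setting and the treatment of multimapping reads are not given in the sources used here. Symbols and exon lengths came from GENCODE M21 (46005 of 46517 identifiers matched), and promoter windows from RefSeq (15 of the 51 genes had none). Groups came from the genotype and treatment labels, since all titles begin with TAC. Title numbers differ between sham and TAC samples, so a batch that follows them cannot be told apart from surgery.

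Counts were tested in R 4.3.3 with edgeR 4.0.16: filterByExpr (14619 genes), TMM scaling and glmQLFit with glmQLFTest on all 11 libraries, 2-sided, with Benjamini-Hochberg adjustment over all genes of each of the 6 comparisons and a threshold of 0.05. Standard errors are the fold change over the root of F and are approximate. The scripts were tested on simulated data. Alternatives were DESeq2 1.42.0, limma-voom (limma 3.58.1), DESeq2 size factors, library totals, 2 other filters, fewer libraries and 2 covariates. Floors are 3 counts and cover counting error only. Named genes were those called in any comparison, a list of the TIMPs and main heart proteases, and the 3 smallest p-values where no gene was called. The genes and lists were chosen with earlier results of these data known.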

Additional observations from a re-analysis of the deposited data

How the results depend on the processing

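No call among the 51 genes reversed its direction under any of the 22 alternatives run for each comparison within a genotype or surgery, or the 21 run for the interaction and for both genotypes together. In WT, 7 genes were called by edgeR, 12 by DESeq2 (10 higher, 2 lower) and 14 without both WT TAC 3 and KO TAC 1, and 0 to 10 when 1 library was left out. In the KO-labelled mice, 5 were called by edgeR, 8 by DESeq2, 10 with library totals, 10 without a filter on low counts, 3 with only the titles ending in M and 12 without both WT TAC 3 and KO TAC 1, and 3 to 7 when 1 library was left out. Over both genotypes the count was 9 to 16 in the 21 alternatives. The calls of Mmp14 and Adamts2 in KO-labelled mice were lost in none of the 22, and 9 of the 13 calls over both genotypes in none of the 21. For Timp1 in KO-labelled mice the call was lost with only the titles ending in M (adjusted p = 0.054). The 3 comparisons without a call kept 0 of these genes in every alternative. Over all genes DESeq2 called 2197 in WT and 1499 in KO-labelled mice, against 1011 and 687 by edgeR, and library totals gave 1044 higher and 133 lower in WT, with the median of all genes at 0.37. Mmp8 gave no value for KO-labelled against WT after sham without WT sham 2, where both groups had 0 counts, and a fit of only the groups compared does not apply to the interaction or to both genotypes together. No paired analysis was possible because the labels carry no number that groups share. At a depth where 3 counts equal 0.143 to 0.278 CPM, a gene below that level in every library gives no fold change.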
